A study of Homo sapiens with 8 samples.

Results

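Antisense RNAs are transcribed from the strand opposite a protein-coding gene, here called the host gene, and are named after it. Transcript clusters were taken as antisense RNAs where the platform's gene symbol ended in -AS, or in -AS and a digit, with HOXC genes left out. This gave 167 transcript clusters for 161 RNAs, among 16377 measured clusters. Of all clusters, 4247 carried 1 gene symbol and are here called clusters with a gene symbol. The 161 RNAs included *GATA3-AS1*, *C10orf95-AS1*, *PDCD4-AS1*, *OBI1-AS1*, *GAS6-AS1* and *RBM26-AS1*, which had 2 clusters each. The antisense clusters lay on chromosomes 10 (42 clusters), 1 (41), 13 (36), 11 (23), 12 (22) and 14 (3).

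The clones are labelled as LNCaP cells, an androgen-sensitive line derived from a human prostate cancer metastasis. One group was 4 clones (2, 8, 9 and 10) that stably expressed *HIST1H1A*, which encodes a linker histone, from a lentiviral vector, and the other was 4 clones (3, 4, 8 and 9) with the control vector. Both groups had been transduced, selected with blasticidin and isolated by serial dilution, and each clone was measured on 1 Affymetrix Human Gene 2.0 ST array. The spread within a group therefore holds both the differences between clones and those of the measurement, and *HIST1H1A* itself was not analysed here.

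Many antisense RNAs start close to the promoter of the host gene and are transcribed away from it, so that a single stretch of open chromatin serves both strands. Others start inside the host gene or beyond its end and run across it. Antisense transcripts are often scarce and kept low by nuclear RNA decay, and single examples have been described that stabilise, silence or leave unaffected the gene across from them. Linker histones bind DNA where it enters and leaves the nucleosome and help compact chromatin.

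Over all clusters, correlations between arrays were 0.964 to 0.977 within the 4 *HIST1H1A* clones, 0.932 to 0.967 within the 4 control clones and 0.916 to 0.948 across the groups (Pearson's r, across clusters). The 8 array medians lay between 3.25 and 3.30 on the log2 scale. Control clone 9 stood over 1 log2 unit above each of the other control clones in 543 of the 16377 clusters, against 39 to 267 for every other clone within its group, and did so in 8 of 105 host genes, 4 of 16 decay and repression genes and 1 antisense cluster, where no other clone did. Without control clone 9, 8 antisense clusters and 22 host genes passed, against 15 and 20 with it. Of 19 listed luminal prostate markers 5 were measured, and all 5 were lower in the *HIST1H1A* clones, with a summed log2 level of 7.26 to 7.40, against 10.2 to 10.8 in control clones. Among these, *FOLH1*, which encodes the prostate-specific membrane antigen that marks LNCaP cells, was at 2.41 to 2.96 in *HIST1H1A* clones, below the median of all values (3.27), and at 8.14 to 9.25 in control clones. Both measured mesenchymal markers, *VIM* and *ZEB1*, were higher, and of the leukocyte markers *LCP1* was lower and *CD4* did not pass. The *HIST1H1A* clones thus went against the luminal markers of their label. The identity of their cells was not tested, so that in every comparison between the groups the *HIST1H1A* vector and any other difference between these clones cannot be told apart. The part of these shifts in the antisense results was not tested, and the RNA of a clone does not tell fewer cells of a type from less RNA per cell.

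The antisense RNAs were mostly dim and mostly did not move. Their mean log2 signal had a median of 3.15 (range 1.95 to 6.93), below the median of all values, and their log2 fold changes, *HIST1H1A* over control, had a median of 0.00, with 84 fitted above 0 and 83 below. Of the 167 clusters 15 passed at an adjusted p under 0.05 (limma), which is 8.98%, where 5.79% of all clusters and 12.2% of those with a gene symbol passed. The direction was upward in 9 (5.39%, against 3.77% of all clusters and 8.45% of those with a symbol) and downward in 6 (3.59%, against 2.02% and 3.72%). With the study's further requirement of a fold over 2, 7 remained (4.19%, against 3.77% and 8.22%), 3 higher and 4 lower. The groups did not overlap in any of the 15, and in 31 of the 167 (18.6%), where 11.1% of all clusters and 19.7% of those with a gene symbol were so separated.

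**Figure D1:**
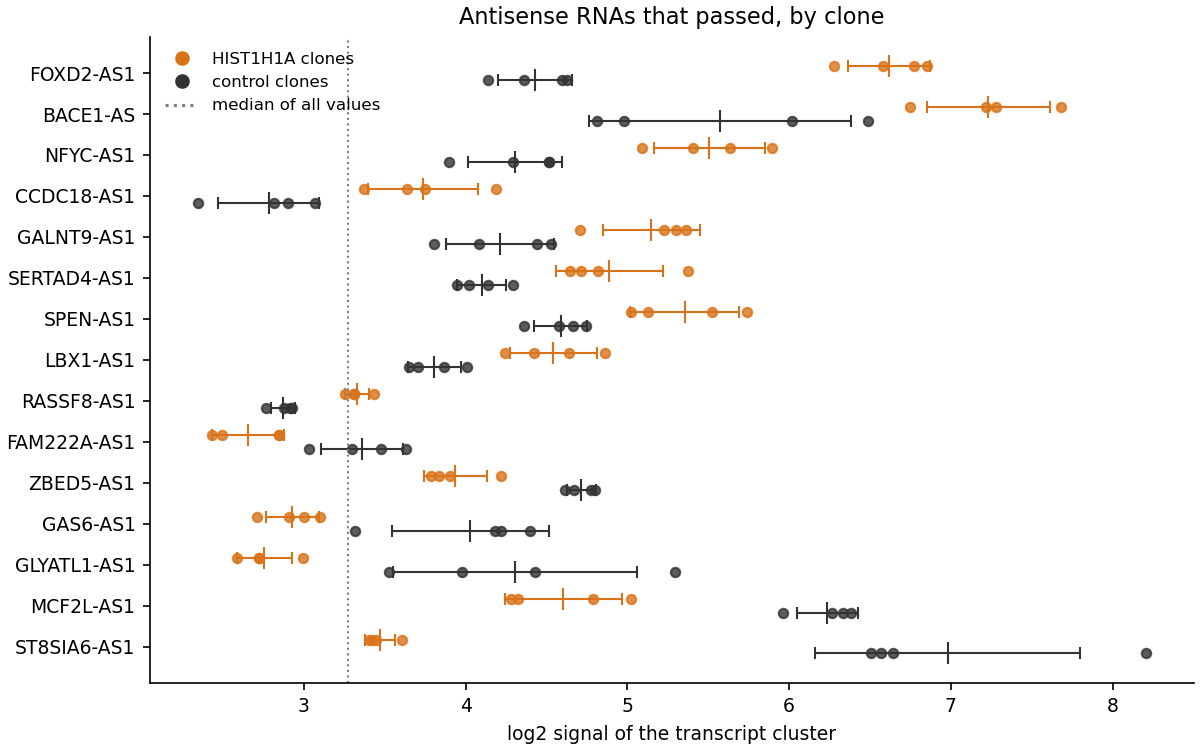
Log2 signal of the 15 antisense clusters that passed, with a point for each clone, a vertical tick at the group mean and bars of 1 SD (n = 4 clones each). *HIST1H1A* clones are drawn above control clones, and no RNA has overlapping groups; the dotted line is the median of all values on the arrays, 3.27.

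Signal went with the share that passed. Of the 77 antisense clusters whose mean lay above the median signal, 12 passed (15.6%), and of the 90 at or below it 3 passed (3.33%). Among all clusters with a gene symbol the shares were 16.4% above and 1.41% at or below the median. For clusters above the median, 12.2% of 49 intergenic LINC RNAs and 17.1% of 2677 clusters with a coding transcript accession passed, so the antisense share lay between the other classes. In 5 of the 15 RNAs that passed, the group with less signal averaged under that median, and their folds rest on low signals. Of the 152 clusters that did not pass, 144 had a fitted change within 0.5 of 0, and 145 had a 95% interval that stayed between -1 and 1, so that a change over 2-fold lay outside it.

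**Figure D2:**
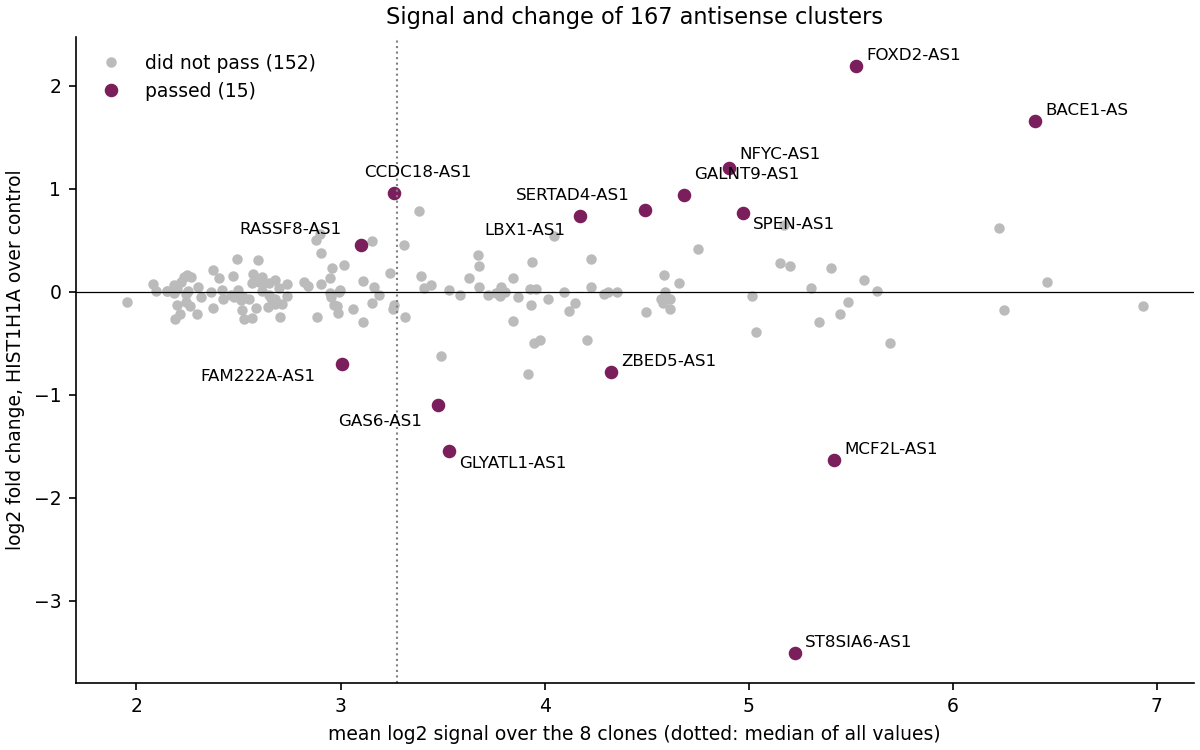
Mean log2 signal over the 8 clones (horizontal) and log2 fold change, *HIST1H1A* over control (vertical), of the 167 antisense clusters; purple points are the 15 that passed. Most of the grey points sit within 0.5 of 0, and 12 of the purple points lie to the right of the dotted line at the median of all values.

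The largest rise was in *FOXD2-AS1*, the antisense partner of the forkhead transcription factor gene *FOXD2*. It was at 6.58, 6.85, 6.77 and 6.28 in *HIST1H1A* clones 2, 8, 9 and 10, against 4.63, 4.14, 4.59 and 4.36 in control clones 3, 4, 8 and 9. Every *HIST1H1A* clone stood at least 1 unit above every control clone. The log2 fold change was 2.19 (standard error 0.17, adjusted p = 0.00017 from limma), a 4.56-fold rise.

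The largest fall was in *ST8SIA6-AS1*, named after a sialyltransferase gene that was not analysed here. It was at 3.40, 3.42, 3.61 and 3.45 in *HIST1H1A* clones, against 6.57, 6.64, 6.51 and 8.21 in control clones. The *HIST1H1A* clones were close together just above the median of all values, and among control clones number 9 stood apart. The log2 fold change was -3.51 (standard error 0.36, adjusted p = 0.00067 from limma), and -3.10 without control clone 9. *ST8SIA6-AS1* and *FOXD2-AS1* were also the only members that passed limma's test against a fold of 2 (adjusted p = 0.0084 and 0.0083).

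*MCF2L-AS1* fell to 4.32, 5.02, 4.79 and 4.28 in *HIST1H1A* clones, against 6.33, 6.38, 5.96 and 6.26 in control clones. The log2 fold change was -1.63 (standard error 0.19, adjusted p = 0.0016 from limma). *ZBED5-AS1*, the partner of a BED-type zinc finger gene that was not analysed here, was at 3.79, 4.22, 3.84 and 3.90, against 4.80, 4.67, 4.62 and 4.78, a smaller change of -0.78 with a narrow spread in both groups (adjusted p = 0.0080 from limma). These RNAs and the pair before them passed in each of 14 other settings: 6 changes of test, scaling or filter, and 8 fits that each left out 1 clone.

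Another RNA kept its call in 13 of these 14 settings. *NFYC-AS1*, named after a subunit of the CCAAT-binding factor NF-Y, was at 5.09, 5.64, 5.41 and 5.90 in *HIST1H1A* clones, against 4.51, 4.51, 3.90 and 4.29 in control clones. It rose by 1.20 on the log2 scale (adjusted p = 0.011 from limma) and missed the threshold with the methods' t-test (adjusted p = 0.052 over all clusters). Its host gene was not analysed here.

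The other 10 calls were less firm, with adjusted p between 0.027 and 0.045 (limma), and each was lost in 7 to 9 of the 13 or 14 settings. *BACE1-AS*, which overlaps the mRNA of beta-secretase and has been described to stabilise it, was at 7.22, 6.75, 7.68 and 7.28 in *HIST1H1A* clones, against 4.98, 6.02, 4.81 and 6.49 in control clones. The control clones lay far apart, and the lowest *HIST1H1A* clone was only just above the highest of them. Its log2 fold change was 1.66 (standard error 0.38, adjusted p = 0.041 from limma). *GLYATL1-AS1*, the partner of an acyltransferase gene, was at 2.72, 2.72, 2.58 and 3.00, against 3.52, 3.98, 4.43 and 5.30, with every *HIST1H1A* clone below the median of all values. Its fall was 1.55 on the log2 scale, although the control clones again spread widely (SD 0.76).

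The remaining rises were within 2-fold. *CCDC18-AS1* (0.96 on the log2 scale), *GALNT9-AS1* (0.94), *SERTAD4-AS1* (0.79), *SPEN-AS1* (0.77), *LBX1-AS1* (0.73) and *RASSF8-AS1* (0.46) were higher in all 4 *HIST1H1A* clones than in any control clone. Their partners encode a coiled-coil protein, an enzyme of mucin-type O-glycosylation, a SERTA domain protein, a transcriptional corepressor, a homeobox factor and a Ras-association domain protein. Of these RNAs *RASSF8-AS1* had the smallest change and the narrowest spread, with an SD of 0.07 in both groups.

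The remaining falls were in *FAM222A-AS1* and *GAS6-AS1*. *FAM222A-AS1* averaged 2.65 ± 0.22 in *HIST1H1A* clones and 3.36 ± 0.26 in control clones (SD, n = 4 each), a change of -0.71. *GAS6-AS1*, the partner of the secreted ligand of the TAM receptor kinases, was at 2.91, 2.71, 3.10 and 3.00 in *HIST1H1A* clones, against 4.40, 4.22, 3.32 and 4.18 in control clones, with control clone 8 closest to the *HIST1H1A* clones. This cluster changed by -1.10 (adjusted p = 0.027 from limma), and the brighter cluster of the same RNA by -0.17 (adjusted p = 0.70). No other member that passed had more than 1 cluster.

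By the role of the host gene, RNAs across from genes of transcription and chromatin held 4 of the 9 rises and 1 of the 6 falls among 26 clusters, where 5.79% of all clusters and 12.2% of those with a gene symbol passed. Enzymes and transporters (29 clusters) had 2 rises and 2 falls, signaling and cytoskeleton (32) had 1 of each, membrane and secreted proteins (29) had 1 fall, and the 51 others had 2 rises and 1 fall. The transcription and chromatin set also had the highest median signal, 3.81, against 2.74 in the membrane and secreted set. The grouping was made after the values had been seen, and no difference between the sets was tested.

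The 5 brightest antisense clusters included only 1 that passed, *BACE1-AS*. *C10orf95-AS1* (brighter cluster) lay between 6.51 and 7.28 in *HIST1H1A* clones and between 6.88 and 7.10 in control clones, and the 95% interval of the log2 difference was -0.51 to 0.24. For *ELOA-AS1* the interval was -0.22 to 0.41 and for *WAC-AS1* -0.71 to 0.37. *TMPO-AS1* was at 6.55, 6.97, 6.53 and 6.10 in *HIST1H1A* clones, against 5.77, 5.79, 6.20 and 5.90 in control clones, so that *HIST1H1A* clone 10 lay within the control range, and its log2 fold change of 0.62 did not pass (adjusted p = 0.12 from limma).

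Just short of the threshold, 6 RNAs had an adjusted p between 0.062 and 0.098 (limma) and groups that did not overlap. *ZNF436-AS1* (0.54), *PRKCQ-AS1* (0.56), *OBI1-AS1* (0.49, brighter cluster) and *GAS5-AS1* (0.78) were fitted higher, and *TMEM254-AS1* (-0.80) and *SLC25A21-AS1* (-0.47) lower. *GAS5-AS1* had the widest spread of these, at 3.28, 3.50, 3.98 and 4.34 in *HIST1H1A* clones, against 2.98, 2.92, 3.19 and 2.90 in control clones.

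Promoter windows of 250 bases before to 50 after the start, from RefSeq on GRCh38.p14, were found for 130 of the 161 RNAs and for 10 of the 15 that passed. The windows of 4 RNAs that passed are shown 5′ to 3′ along the strand of the antisense RNA, with CG dinucleotides in capitals, because the first 3 of these RNAs moved together with their host gene and *MCF2L-AS1* starts near its host's promoter. All 4 are on the minus strand, opposite the host gene: *FOXD2-AS1* at chr1:47434592-47434891, *SERTAD4-AS1* at chr1:210233836-210234135, *GLYATL1-AS1* at chr11:59058403-59058702 and *MCF2L-AS1* at chr13:112968589-112968888.
FOXD2-AS1: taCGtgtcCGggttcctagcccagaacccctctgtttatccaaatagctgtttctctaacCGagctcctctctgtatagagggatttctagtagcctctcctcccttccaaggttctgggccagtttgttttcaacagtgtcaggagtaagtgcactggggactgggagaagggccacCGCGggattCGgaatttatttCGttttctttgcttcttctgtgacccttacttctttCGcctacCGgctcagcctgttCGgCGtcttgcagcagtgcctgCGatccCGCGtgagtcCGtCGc
SERTAD4-AS1: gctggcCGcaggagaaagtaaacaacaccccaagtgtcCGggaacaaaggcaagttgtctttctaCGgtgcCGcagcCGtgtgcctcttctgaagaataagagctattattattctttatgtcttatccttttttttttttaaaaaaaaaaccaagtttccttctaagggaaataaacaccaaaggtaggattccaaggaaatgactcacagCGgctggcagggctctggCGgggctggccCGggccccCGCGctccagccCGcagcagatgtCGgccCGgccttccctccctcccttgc
GLYATL1-AS1: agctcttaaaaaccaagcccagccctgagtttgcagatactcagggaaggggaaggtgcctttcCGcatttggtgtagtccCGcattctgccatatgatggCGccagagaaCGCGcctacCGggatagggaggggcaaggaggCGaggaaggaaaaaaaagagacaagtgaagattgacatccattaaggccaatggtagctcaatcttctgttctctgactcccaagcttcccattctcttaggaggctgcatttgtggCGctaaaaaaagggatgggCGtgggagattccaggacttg
MCF2L-AS1: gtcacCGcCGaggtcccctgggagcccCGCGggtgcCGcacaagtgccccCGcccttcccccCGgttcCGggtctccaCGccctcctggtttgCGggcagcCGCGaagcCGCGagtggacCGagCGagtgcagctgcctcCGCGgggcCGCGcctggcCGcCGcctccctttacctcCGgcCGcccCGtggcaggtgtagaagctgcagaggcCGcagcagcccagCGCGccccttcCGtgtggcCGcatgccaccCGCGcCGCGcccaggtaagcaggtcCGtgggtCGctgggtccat
The windows hold 16, 13, 9 and 36 CG dinucleotides, in the order shown.

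These 4 windows lie within the range of the class and reach neither end of it. Over the 151 windows of antisense RNAs the median was 15 CG dinucleotides (range 0 to 49) at a median GC content of 58.0%, against 14 and 58.7% over all 35116 RefSeq promoter windows. The 11 windows of RNAs that passed had a median of 16 (range 5 to 49), and the 270 windows of host genes a median of 19.5. The letters TATAAA, read on both strands, were in 12.6% of the antisense windows and 11.5% of all, and CCAAT in 29.8% and 34.6%. These are counts of letters, with no reading of what binds there.

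Of 105 host genes measured, 20 passed (19%), 17 higher and 3 lower (limma), where 12.2% of all clusters with a gene symbol and 16.4% of those above the median signal passed. The host clusters were brighter than the antisense clusters, with a median mean signal of 4.53, and the shares of both that passed were not tested against each other. The rises were led by *DPYD*, the first enzyme of pyrimidine breakdown (2.54 on the log2 scale), the netrin receptor gene *UNC5B* (2.27), the podosome scaffold gene *SH3PXD2A* (2.08), *SERTAD4* (1.90) and the agrin receptor gene *LRP4* (1.60). Rises between 0.86 and 1.36 were in the adhesion genes *NCAM1* and *PCDH9*, the actin-binding *SVIL*, the protease gene *ECE1*, the transcription factor genes *GATA3*, *FOXD2*, *ZNF503* and *ZEB1*, the histone demethylase gene *KDM4A*, and *SPART*, *NAV2* and *USP30*. The falls were in *GLYATL1* (-1.72), *SPATA13* (-1.14) and the synaptic scaffold gene *SHANK2* (-0.97). Dimmer clusters of 2 of these genes did not follow the brightest, with changes of 0.03 and -0.11 for *NAV2* and -0.06 for *PCDH9*. Of the 20 calls 13 held in all 14 settings.

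With every measured host gene set beside its antisense RNA there were 117 pairs. The fitted changes had the same sign in 65 (55.6%). Where neither passed this was 43 of 86 (50%), where the host gene passed 16 of 24 (66.7%), and where the antisense RNA passed 9 of 10. These counts carry no test, and pairs of 1 host gene share its values. The size of the change was larger in the host gene in 81 of the 117 pairs.

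**Figure D3:**
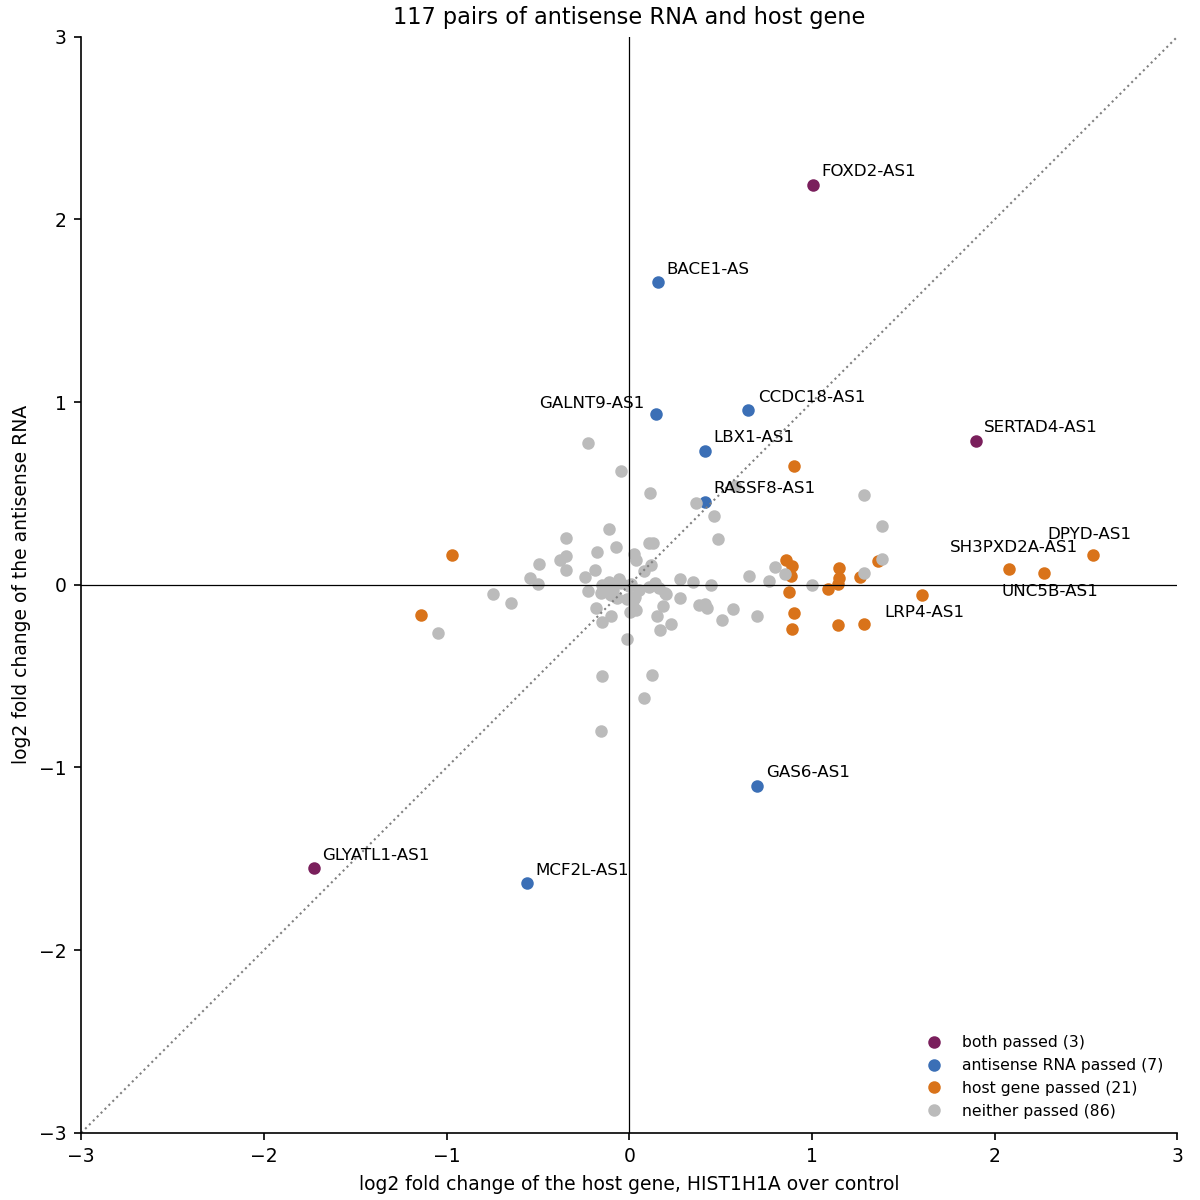
Log2 fold change, *HIST1H1A* over control, of the host gene (horizontal) and of its antisense RNA (vertical) in 117 pairs; the dotted line marks equal change. Most pairs whose host gene passed (orange, 21) lie along the horizontal axis, and the 3 pairs in which both passed (purple) lie at the lower left and upper right.

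Both partners passed in 3 pairs, each in 1 direction. *FOXD2* was at 4.66, 5.26, 4.77 and 4.85 in *HIST1H1A* clones, against 4.36, 3.86, 3.99 and 3.31 in control clones, a rise of 1.01 (adjusted p = 0.039 from limma, lost in 8 of 14 settings). It was smaller than that of *FOXD2-AS1* by 1.18. *SERTAD4* was at 5.41, 5.02, 5.32 and 5.46, against 3.79, 3.26, 3.33 and 3.25, a rise of 1.90 (adjusted p = 0.00031 from limma), which exceeded that of *SERTAD4-AS1*. *GLYATL1* was at 3.18, 3.05, 3.30 and 2.80, against 4.44, 5.01, 5.20 and 4.58, a fall of 1.72 (adjusted p = 0.0013 from limma), close to the fall of 1.55 in *GLYATL1-AS1*.

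An exact permutation test over the 70 splits of the 8 clones was run on the difference between antisense RNA and host gene in each of the 117 pairs (two-sided; the smallest p it can give is 0.0286). The antisense minus host difference of the log2 fold changes was 1.18 for *FOXD2* and -1.11 for *SERTAD4*, both at exact p = 0.0286, and 0.17 for *GLYATL1* at exact p = 0.686. In all, 32 of the 117 pairs were at the smallest p, which after Benjamini-Hochberg adjustment is 0.104, so no pair passed this exact test at 0.05. With so few splits, a pair could pass only if many more pairs reached the smallest p at once.

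In 7 pairs the antisense RNA passed and the host gene did not. *MCF2L* was at 4.28, 4.55, 4.42 and 4.30 in *HIST1H1A* clones, against 5.18, 5.08, 4.77 and 4.75 in control clones, a difference of -0.56 in the direction of its antisense RNA that missed the threshold (adjusted p = 0.053 from limma). *GAS6* was the only one of the 7 with the opposite sign, at 5.57, 5.96, 5.61 and 5.72, against 5.56, 5.20, 4.58 and 4.71, a difference of 0.70 (95% interval 0.20 to 1.21, adjusted p = 0.13 from limma). *BACE1* was at 6.34, 6.64, 6.54 and 6.58, against 6.24, 6.62, 6.34 and 6.26, with groups that overlapped and a difference of 0.16 (95% interval -0.13 to 0.45). For *LBX1* and *RASSF8* the difference was 0.42 each, for *CCDC18* 0.65 and for *GALNT9* 0.14, none of which passed.

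The exact test of antisense minus host gave p = 0.0286 for *MCF2L* (-1.07), *GAS6* (-1.80) and *GALNT9* (0.79), and p = 0.0571 for *BACE1* (1.50). For *LBX1*, *CCDC18* and *RASSF8* it gave 0.114, 0.600 and 0.771. These pairs were chosen for a call in the antisense RNA alone, which favours a difference, so the p-values only describe them. *CCDC18* spread from 2.72 to 5.14 among control clones.

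**Figure D4:**
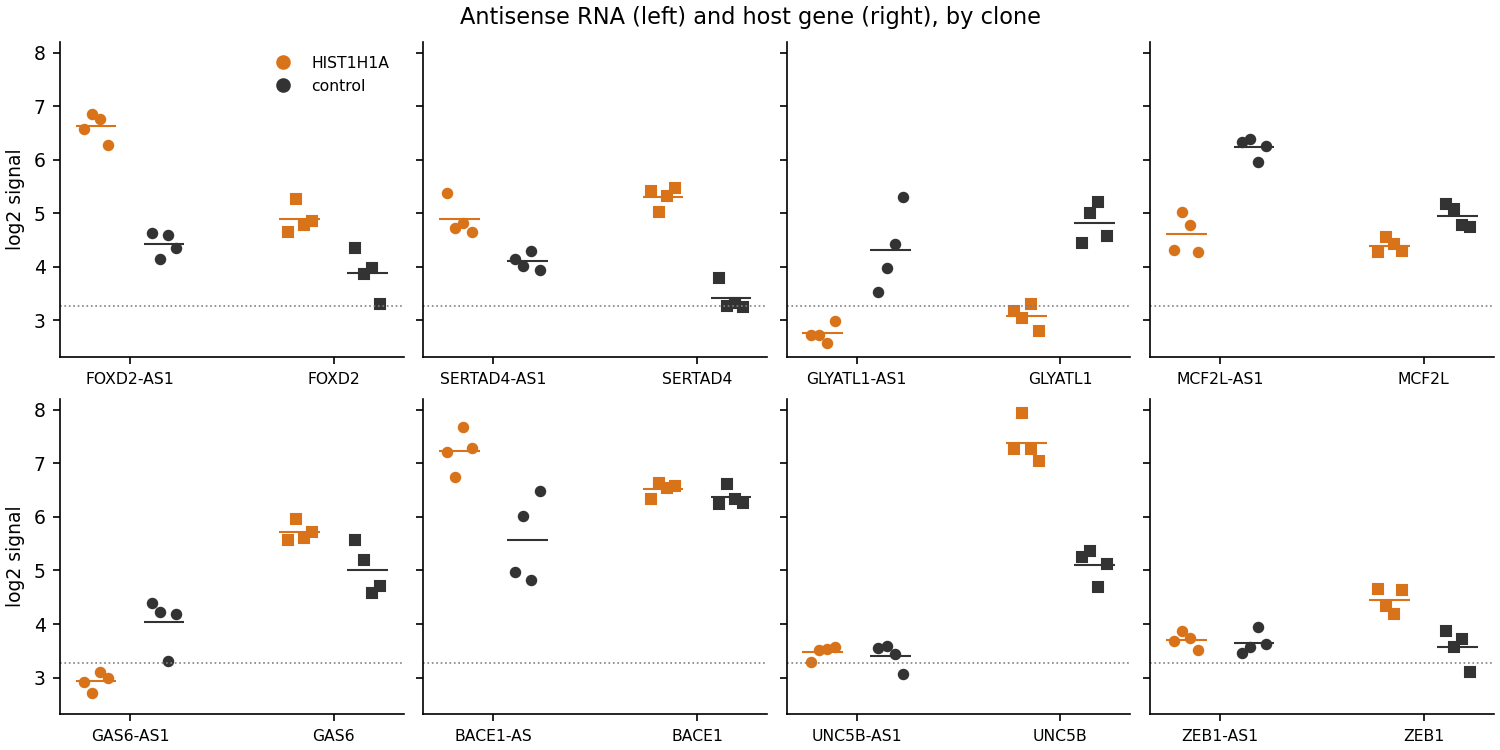
Log2 signal in each clone of 8 antisense RNAs (circles, left in each panel) and their host genes (squares, right), with lines at group means and a dotted line at the median of all values, 3.27. *HIST1H1A* clones (orange) stand left of control clones (dark): in the *UNC5B* and *ZEB1* panels the squares separate by group and the circles do not. For *GAS6-AS1* the dimmer of its 2 clusters is drawn, which passed, while the brighter changed by -0.17 and did not pass.

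In 21 pairs (17 host genes) the host gene passed and the antisense RNA did not, with a median size of the change of 1.14 for the host genes and 0.10 for the antisense RNAs. These pairs were chosen by that difference, so the sizes only describe them, and few clusters at or below the median signal passed (1.41% of those with a gene symbol). *UNC5B* was at 7.27, 7.94, 7.26 and 7.04 in *HIST1H1A* clones, against 5.26, 5.36, 4.70 and 5.12 in control clones. *UNC5B-AS1* was at 3.29, 3.52, 3.53 and 3.56, against 3.56, 3.59, 3.43 and 3.06, so its groups overlapped, and the 95% interval of its log2 difference was -0.27 to 0.40.

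*DPYD* averaged 5.46 ± 0.41 in *HIST1H1A* clones and 2.92 ± 0.13 in control clones (SD, n = 4 each), while *DPYD-AS1* was at 2.45, 2.27, 2.14 and 2.46, against 2.18, 2.18, 2.04 and 2.27. All 8 values of this antisense RNA lay far below the median of all values, where few clusters passed. Not every such RNA was dim. *LRP4-AS1* lay between 3.58 and 4.01 in *HIST1H1A* clones and between 3.81 and 4.03 in control clones (95% interval of the log2 difference -0.34 to 0.24), *ECE1-AS1* averaged 4.23 over the 8 clones (interval -0.37 to 0.45), and *SHANK2-AS1*, whose host gene fell, averaged 4.58 (interval -0.19 to 0.51).

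**Figure D5:**
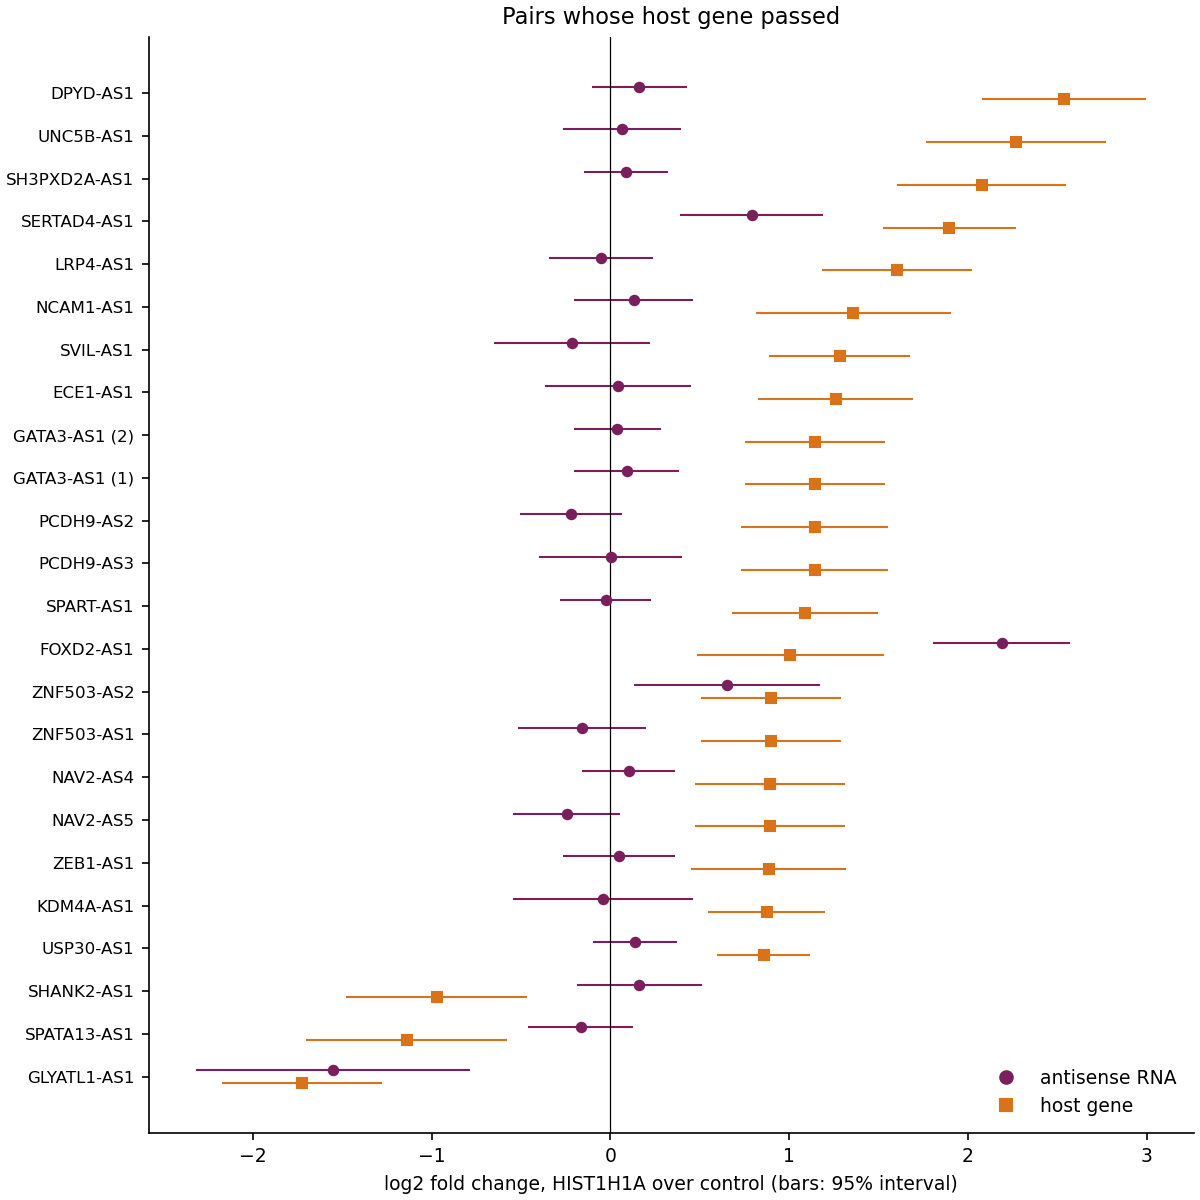
Log2 fold changes, *HIST1H1A* over control, with 95% intervals (limma) of the 24 pairs whose host gene passed: antisense RNA (purple circle) and host gene (orange square). Apart from *FOXD2-AS1*, *SERTAD4-AS1* and *GLYATL1-AS1*, the antisense change of *ZNF503-AS2* (0.65) is the only one whose interval leaves out 0.

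RefSeq starts allowed the arrangement to be read for 120 of the 167 clusters. Of these, 48 started head to head with the host gene, within 1000 bases of its nearest listed start, 61 overlapped the host and started inside or beyond it, 5 overlapped and started upstream, and 6 did not overlap. Among head-to-head clusters 1 rose and 2 fell, and among those starting inside or beyond the host 2 rose and 2 fell. The fitted changes of RNA and host had the same sign in 21 of 32 head-to-head pairs (65.6%) and in 22 of 48 pairs of the second kind (45.8%). This difference was not tested.

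The nearest listed starts of *MCF2L-AS1* and *MCF2L* are 576 bases apart, and those of *SPEN-AS1* and its host 440. *FOXD2-AS1* starts 3403 bases upstream of *FOXD2*, without overlap, *SERTAD4-AS1* starts 1089 bases into *SERTAD4*, and *GLYATL1-AS1* starts 118293 bases beyond the start of *GLYATL1* and runs back over it. The 3 pairs in which both partners passed were thus none of them head to head by the 1000-base limit. *SERTAD4-AS1* lay just past that limit, and *FOXD2-AS1* also runs away from its host gene.

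*ZEB1*, *GATA3* and *SPART* are host genes that rose, and their head-to-head antisense RNAs did not pass. They were picked for this pattern, and *SPART-AS1* and the dimmer *GATA3-AS1* cluster lay far below the median of all values, where few clusters passed. Their windows are shown with that of *ZBED5-AS1*, which fell, because the stretch between both starts, in capitals, lies within a single promoter window. They are given 5′ to 3′ along the antisense strand, from RefSeq on GRCh38.p14: *ZEB1-AS1* at chr10:31320398-31320697 and *GATA3-AS1* at chr10:8053435-8053734, both on the minus strand, and *SPART-AS1* at chr13:36346181-36346480 and *ZBED5-AS1* at chr11:10857967-10858266, both on the plus strand.
ZEB1-AS1: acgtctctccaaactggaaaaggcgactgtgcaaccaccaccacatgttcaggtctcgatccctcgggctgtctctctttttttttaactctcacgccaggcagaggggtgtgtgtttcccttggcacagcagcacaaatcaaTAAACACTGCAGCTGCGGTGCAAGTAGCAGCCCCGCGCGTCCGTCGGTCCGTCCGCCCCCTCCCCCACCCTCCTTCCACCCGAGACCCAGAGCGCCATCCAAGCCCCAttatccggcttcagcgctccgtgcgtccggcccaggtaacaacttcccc
GATA3-AS1: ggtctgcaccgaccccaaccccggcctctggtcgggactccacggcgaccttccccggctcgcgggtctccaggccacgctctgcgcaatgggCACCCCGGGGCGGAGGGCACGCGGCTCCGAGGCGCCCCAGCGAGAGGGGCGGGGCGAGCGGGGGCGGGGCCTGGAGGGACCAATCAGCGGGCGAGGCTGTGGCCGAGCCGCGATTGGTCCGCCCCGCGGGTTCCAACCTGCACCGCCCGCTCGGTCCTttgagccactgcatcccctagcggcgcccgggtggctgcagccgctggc
SPART-AS1: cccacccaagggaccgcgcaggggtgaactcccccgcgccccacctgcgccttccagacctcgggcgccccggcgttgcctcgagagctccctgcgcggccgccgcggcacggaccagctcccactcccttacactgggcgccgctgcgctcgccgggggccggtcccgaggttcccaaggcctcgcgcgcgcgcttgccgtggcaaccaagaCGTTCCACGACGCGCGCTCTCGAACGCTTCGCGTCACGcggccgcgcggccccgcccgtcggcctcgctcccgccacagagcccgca
ZBED5-AS1: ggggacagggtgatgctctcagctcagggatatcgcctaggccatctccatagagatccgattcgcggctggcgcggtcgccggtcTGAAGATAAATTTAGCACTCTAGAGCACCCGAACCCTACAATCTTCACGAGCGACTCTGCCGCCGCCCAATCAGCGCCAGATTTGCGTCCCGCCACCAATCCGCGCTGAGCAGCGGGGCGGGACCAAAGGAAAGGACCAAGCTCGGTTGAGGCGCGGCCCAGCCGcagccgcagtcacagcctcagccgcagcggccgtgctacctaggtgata
The starts are 107, 157, 37 and 164 bases apart, in the order shown, and the windows hold 20, 36, 49 and 28 CG dinucleotides. Where several starts are listed, the nearest pair was taken. *ZEB1-AS1* has 2 listed windows and *GATA3-AS1* 3, and *ZEB1*, *GATA3* and *SPART* have 7, 6 and 3.

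*ZEB1*, a repressor of epithelial genes, was at 4.66, 4.33, 4.19 and 4.64 in *HIST1H1A* clones, against 3.87, 3.57, 3.71 and 3.11 in control clones, a rise of 0.89 (adjusted p = 0.029 from limma, lost in 5 of 14 settings). *ZEB1-AS1* was at 3.68, 3.86, 3.74 and 3.52, against 3.46, 3.58, 3.94 and 3.63, with groups that overlapped and a 95% interval of -0.26 to 0.36 for the log2 difference. The antisense minus host difference was -0.84 (exact p = 0.0286, the smallest the test can give), in a pair picked for such a difference.

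*GATA3*, a factor of luminal cell fate in the breast, rose by 1.15, and the 2 clusters of *GATA3-AS1* differed by 0.09 (95% interval -0.20 to 0.38) and 0.04 (-0.21 to 0.28). *SPART*, which encodes the lipid droplet protein spartin, rose by 1.09, and *SPART-AS1*, between 2.11 and 2.32 in *HIST1H1A* clones and between 2.08 and 2.36 in control clones, differed by -0.02 (-0.28 to 0.23). *ZNF503-AS2* was nearest to following its host. It was at 5.30, 5.48, 5.88 and 5.35 in *HIST1H1A* clones, against 5.30, 5.04, 4.75 and 4.30 in control clones, a difference of 0.65 (0.13 to 1.17) beside a rise of 0.90 in *ZNF503*, and it did not pass (adjusted p = 0.18 from limma). For the other antisense RNA of that gene, *ZNF503-AS1*, the difference was -0.16.

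The arrays also measured 16 genes of nuclear RNA decay, transcription termination, double-stranded RNA handling and Polycomb repression, from a list of 77 symbols with older names counted. Of the 16, 1 passed, where 5.79% of all clusters and 12.2% of those with a symbol did. This was *DIS3*, a catalytic ribonuclease of the RNA exosome, at 8.68, 7.28, 8.01 and 8.68 in *HIST1H1A* clones, against 4.36, 4.95, 4.53 and 6.88 in control clones. The rise was 2.98 on the log2 scale (standard error 0.57, adjusted p = 0.016 from limma), control clone 9 lay above the other control clones, and the call was lost in 5 of 14 settings, among them without control clone 4 and without *HIST1H1A* clone 2, 9 or 10 (adjusted p = 0.052 to 0.058). The other nuclear exosome ribonuclease measured, *EXOSC10*, differed by 0.45 (95% interval 0.13 to 0.77, adjusted p = 0.13 from limma). The subunit genes *EXOSC1* and *EXOSC8* differed by 0.25 and -0.91. The median of the 16 was 0.25, against -0.01 over all clusters and 0.08 over clusters with a coding transcript accession above the median signal. Without control clone 9, 3 of the 16 passed. Whether these changes have a part in the antisense results was not tested.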

How the data were processed

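RNA from 4 *HIST1H1A* and 4 control clones of LNCaP cells was hybridised to Affymetrix arrays, 1 for each clone. The values the authors deposited are log2 signals of transcript clusters. Partek is named in the submitters' processing notes, without a version, and how the signals were summarized and normalized is not given in the sources used here. The signals were used as deposited. All 16377 clusters were tested without covariates in limma 3.58.1 (lmFit and eBayes, R 4.3.3), at a threshold of 0.05 on p-values adjusted by Benjamini-Hochberg over all of them. The test had been checked on simulated data. The number of arrays limits the precision.

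Clusters were named from the platform annotation where it gave 1 symbol (4247). The other 12130 were left unnamed, and any with several symbols were not counted apart from those with none. The strand that the probes of a cluster read was not checked. Where a host gene had several clusters, the brightest stood for it. Named were all antisense RNAs and measured host genes that passed, with their partners, the 5 brightest antisense clusters, up to 6 others with adjusted p of 0.05 to 0.10, and decay genes that passed. Further genes were named after their values were seen. Members and lists were chosen with earlier results of these data known. Alternatives were the methods' t-test (named in the paper for replicate experiments, not for the arrays), trend and robust settings, quantile normalization, median centring, filters, fold rules, mean over a gene's clusters, clone number as a block, and leaving out each clone. Some genes are not reported here.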

Additional observations from a re-analysis of the deposited data

Results flagged for a closer look

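Groups of 4 clones were screened with Dixon's criterion for 1 clone that lay apart from its group. This was so in 3 of the 160 groups screened, and about 8 would be so by chance. For *ST8SIA6-AS1* it was control clone 9, at 8.21, with the next control clone at 6.64. For *UNC5B-AS1* it was *HIST1H1A* clone 2, at 3.29, with the next *HIST1H1A* clone at 3.52. For the host gene *SERTAD4* it was control clone 3, at 3.79, with the next control clone at 3.33. All values are log2 signals. The criterion looks at each gene alone, and across genes control clone 9 stood over 1 log2 unit above the other control clones in 8 of 105 host genes and 543 of 16377 clusters.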

How the results depend on the processing

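Against 15 antisense clusters called, the methods' t-test called 5, a fold over 2 left 7 and limma against a fold of 2 called 2. Leaving out 1 clone gave 6 to 9 calls, of which 6 to 8 were among the 15, and clones 3, 4, 2 and 10 alone (chosen after seeing the data) gave 4. Calls numbered 12 to 16 with trend and robust settings, quantile normalization, median centring, a filter on dim clusters and the mean over an RNA's clusters, and 21 when only named clusters were tested. Of the 15, 4 passed in every one of 14 settings (6 changes of test, scaling or filter and 8 fits without 1 clone). Against 20 host genes called, the methods' t-test called 13, limma against a fold of 2 called 4, and leaving out 1 clone gave 14 to 22. Among decay and repression genes (1 called) the methods' t-test and a fold of 2 gave 0, quantile normalization 2, named clusters only 3 and leaving out 1 clone 0 to 3. Same-sign pairs numbered 27 of 52 with dim clusters filtered (fewer pairs tested), and 60 of 105 with 1 pair for each host gene. Clones 8 and 9 occur in both groups. Like-numbered clones deviated from their group means with correlations of 0.07 and -0.22, and whether they share more than the number was not tested. On these 4 arrays the clone number as a block gave 0 antisense, 0 host and 0 decay gene calls and 70 same-sign pairs, and without the block 1, 0 and 0 calls and 70 pairs. No value that passed reversed its sign. Of the named genes that did not pass, 14 with log2 changes within 0.173 of 0 changed sign in at least 1 setting. The cause of lost calls was not tested, apart from the fewer arrays that these settings hold. Of the 167 antisense clusters 90 lay at or below the median signal, where 3 (3.33%) passed and small changes could be missed.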
